A study of Rattus norvegicus with 11 samples.

Results

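Myh6, Sim2, Rtbdn, Sspo and Fam46b are 5 of the 16811 genes in a deposited table of gene counts from rat dorsal root ganglia, the clusters of sensory neuron cell bodies beside the spinal cord. They were taken by symbol and were chosen by their measured values: each was low in every library without UNC0638 and higher in every library with it. Each is best known from another tissue. Those same values are given below, so the levels of the 5 genes are a description and carry no test. No tissue other than the ganglion was measured.

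Libraries of 3 groups were made from Sprague-Dawley rats. The first group had a ligated spinal nerve, an injury that models neuropathic pain, and was then treated with UNC0638 (SNL plus UNC0638, n = 3). The second group had the ligation alone (SNL, n = 4), and the third was a control operation (Sham, n = 4). Ganglia of both ligated groups were from the left side and those of Sham rats from the right. The sources used here give no dose, route, time after injury or age, and do not say whether a library pooled animals, so p-values measure the spread between these libraries, which may be technical. UNC0638 without ligation was not analysed here. RNA was extracted with either of 2 reagents, and which library received which is not given, so reagent and group cannot be told apart. By the steps between low values, the deposited numbers are each library's counts divided by a single number, which brings the totals close together. These scaled counts add up to 9450045 to 11347920 per library, from an estimated 6127881 to 24367805 reads. With scaled counts and no gene lengths, levels were compared between libraries and not between genes.

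UNC0638 inhibits G9a and its partner GLP, enzymes that place methyl groups on a lysine of histone tails, a mark found at silent genes. Such marks are known to help keep genes of other cell types switched off in a differentiated cell. Myh6 encodes the alpha myosin heavy chain, a motor protein of heart muscle. Sim2 encodes a single-minded transcription factor of the bHLH-PAS family, whose members pair with ARNT proteins on DNA. Rtbdn encodes retbindin, a riboflavin-binding protein of the retina. Sspo encodes SCO-spondin, a giant glycoprotein that the subcommissural organ of the brain secretes into the cerebrospinal fluid. Fam46b, now named Tent5b, encodes a nucleotidyltransferase that can lengthen poly(A) tails, known from human pluripotent stem cells.

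The region around the annotated gene start was held by the reference table for Myh6, Sspo and Fam46b. These 3 promoters are shown because the genes moved together, by the way they were chosen, while their start regions differ in base composition. Each sequence runs from 250 bases before to 50 bases after the start, on the gene's own strand, and is from RefSeq, build GRCr8. That build is later than the rn4 build of the data, so no positions are given. Capitals mark the CCAAT box on either strand, GGGCGG on either strand and the letters TATAAG, where present.
Myh6: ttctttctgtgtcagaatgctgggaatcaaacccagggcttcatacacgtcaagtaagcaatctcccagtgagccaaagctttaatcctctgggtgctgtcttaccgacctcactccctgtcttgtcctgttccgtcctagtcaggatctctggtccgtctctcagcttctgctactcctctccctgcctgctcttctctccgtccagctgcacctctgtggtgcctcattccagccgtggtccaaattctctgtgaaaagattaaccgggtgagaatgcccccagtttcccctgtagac
Sspo: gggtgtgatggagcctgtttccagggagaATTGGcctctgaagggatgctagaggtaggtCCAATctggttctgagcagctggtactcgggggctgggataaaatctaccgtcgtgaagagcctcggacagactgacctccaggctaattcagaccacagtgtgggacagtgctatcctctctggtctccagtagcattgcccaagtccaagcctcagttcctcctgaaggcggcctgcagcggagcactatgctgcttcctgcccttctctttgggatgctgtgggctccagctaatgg
Fam46b: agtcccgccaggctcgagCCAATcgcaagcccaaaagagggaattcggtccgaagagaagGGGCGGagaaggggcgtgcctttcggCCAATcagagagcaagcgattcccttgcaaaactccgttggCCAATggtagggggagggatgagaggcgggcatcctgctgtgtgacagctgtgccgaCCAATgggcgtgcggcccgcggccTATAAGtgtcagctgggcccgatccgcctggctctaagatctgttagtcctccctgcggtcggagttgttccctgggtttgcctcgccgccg

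The Fam46b start region held 23 CpG dinucleotides, the Sspo region 6 and the Myh6 region 7, against a median of 7 over 33469 promoters of the same length in the table. Of those promoters, 80.48% held fewer CpG than that of Fam46b, 43.74% fewer than that of Sspo and 48.56% fewer than that of Myh6. The GC content was 62.33% for Fam46b, 56.33% for Sspo and 52.67% for Myh6, and the median promoter had 51.67%. On both strands, CCAAT was found 4 times for Fam46b, 2 times for Sspo and 0 times for Myh6, and 37.49% of promoters held it. GGGCGG was found 1 time, for Fam46b, and is held by 33.06% of promoters. TATAAG was likewise found 1 time, for Fam46b, and 7.906% of promoters hold it, while TATAAA (14.22% of promoters) and CACGTG (6.418%) were in none of the 3. The looser E-box CANNTG, which includes CACGTG and is held by 72.1% of promoters, was found 2 times for Fam46b and 1 time each for Sspo and Myh6. These matches are letters in a window, and binding of any factor was not measured. No base composition or motif of this small set was shared by all 3 promoters apart from CANNTG.

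Myh6 was more than 10 times higher with UNC0638 than in either other group. It had 179, 142 and 152 scaled counts in SNL plus UNC0638 libraries, against 11.3, 11.6, 18.8 and 10.03 in SNL libraries and 15.3, 13.6, 9.35 and 7.69 in Sham libraries. The 3 treated libraries lay close together and far above the others, while the ranges of SNL and Sham overlapped. The means were 158 ± 19.2 with UNC0638 (SD, n = 3), 12.9 ± 3.96 in SNL and 11.5 ± 3.57 in Sham (n = 4 each). The ratio of means was 12.2 to SNL and 13.7 to Sham, and the log2 difference on log2(scaled count + 1) was 3.55 and 3.71. About 92 to 200 reads per library lay behind the treated values, and 6 to 27 behind the others. The cardiac myosin gene was thus read in every library of the control groups, at a low level.

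Sim2 had 41.3, 46.4 and 46.4 scaled counts in SNL plus UNC0638 libraries, against 4.70, 3.43, 5.26 and 1.82 in SNL libraries and 5.56, 2.27, 12.5 and 5.38 in Sham libraries. Its treated libraries differed least among themselves of the 5 genes, by a factor of 1.13 between the highest and the lowest. The other groups overlapped, with Sham library 3 at the top. Means were 44.7 ± 2.98 with UNC0638, 3.803 ± 1.53 in SNL and 6.42 ± 4.30 in Sham, and log2 differences were 3.31 to SNL and 2.80 to Sham. These values rest on 30 to 46 reads per treated library and 2 to 8 in the others.

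Rtbdn was the gene nearest to absence in the control groups. It had 52.9, 30.9 and 27.1 scaled counts in SNL plus UNC0638 libraries, against 0.941, 1.71, 2.25 and 0 in SNL libraries and 1.39, 3.41, 1.56 and 0 in Sham libraries. All 3 treated libraries lay above every other, with library 1 highest, and 6 of the 8 other libraries held a read. Together those 8 libraries held 13 reads, and the treated libraries held 20 to 59 each. Means were 36.98 ± 13.9 with UNC0638, 1.23 ± 0.979 in SNL and 1.59 ± 1.40 in Sham. The log2 differences, 4.16 to SNL and 4.00 to Sham, understate the change of so low a gene because of the added 1.

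Sspo was also lower in SNL than in Sham. It had 76.2, 100.6 and 60.6 scaled counts in SNL plus UNC0638 libraries, against 4.70, 4.29, 5.26 and 6.38 in SNL libraries and 12.5, 12.5, 12.5 and 9.22 in Sham libraries. The 3 groups did not overlap, in the order SNL plus UNC0638, Sham, SNL. Means were 79.1 ± 20.1 with UNC0638, 5.16 ± 0.909 in SNL and 11.7 ± 1.64 in Sham. The log2 difference was 3.68 to SNL and 2.64 to Sham, and that of SNL to Sham was -1.04. The treated libraries held 47 to 85 reads and the others 5 to 12. In bulk RNA of this kind, fewer cells of a type and less RNA per cell cannot be told apart.

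Fam46b had a wide spread in Sham, with an SD close to its mean. It had 144, 128 and 72.2 scaled counts in SNL plus UNC0638 libraries, against 2.82, 3.43, 9.76 and 7.30 in SNL libraries and 8.35, 6.82, 37.4 and 11.5 in Sham libraries. Sham library 3 stood apart from its group, and the lowest treated library was 1.93 times as high as it. Without that library the lowest treated value was 6.27 times the highest other one. Means were 115 ± 37.9 with UNC0638, 5.83 ± 3.29 in SNL and 16.0 ± 14.4 in Sham, where the mean without library 3 was 8.90 ± 2.40 (n = 3). The log2 difference was 4.16 to SNL and 3.02 to Sham, or 3.52 without Sham library 3. The treated libraries held 56 to 161 reads and the others 3 to 24. A pseudogene copy, Tent5b-ps1, is annotated in RefSeq, and the sources used here do not say how reads shared by near-identical copies were counted.

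**Figure D1:**
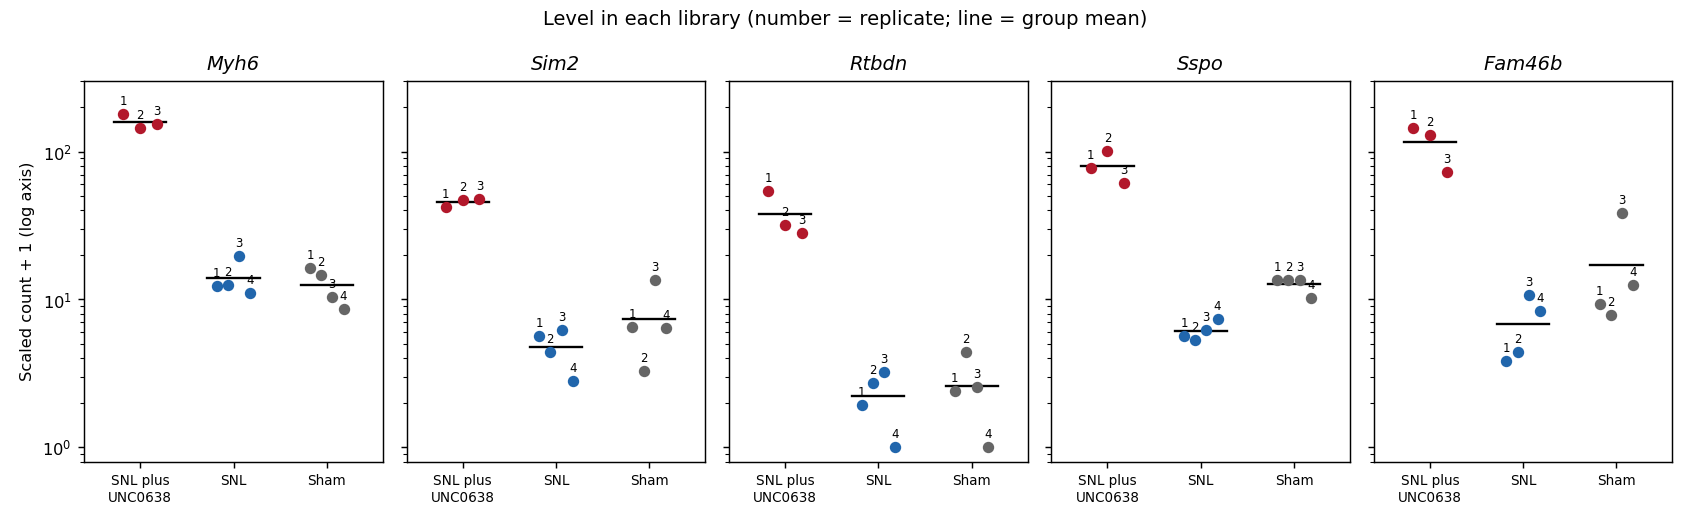
Scaled counts + 1 on a log axis for each of the 5 genes, with 1 point per library, numbered by replicate, and a line at the group mean. The 3 SNL plus UNC0638 libraries lie above all SNL and Sham libraries in each panel, with the smallest gap for Fam46b, where Sham library 3 had 37.4.

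Between treated libraries the highest value was 1.26 times the lowest for Myh6, 1.66 times for Sspo, 1.95 times for Rtbdn and 1.999 times for Fam46b. No 1 treated library was highest for all 5 genes, since library 1 led for Myh6, Rtbdn and Fam46b, library 2 for Sspo, and libraries 2 and 3 were level for Sim2. In SNL, library 3 was highest for 4 of the 5, all but Sspo. Sim2, Rtbdn and Fam46b reached 10 scaled counts in fewer than 3 of the 8 SNL and Sham libraries. They therefore passed the filter for testing (at least 10 in at least 3 libraries) only through the treated group, and all 5 passed. Leaving out SNL plus UNC0638 library 1 gave log2 differences to SNL of 3.45 for Myh6, 3.37 for Sim2, 3.88 for Rtbdn, 3.69 for Sspo and 3.96 for Fam46b.

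The pattern of the 5 genes was shared by many others. Of 12085 genes tested, 1129 (9.34%) had every SNL plus UNC0638 value above every SNL and Sham value, and 1254 had every treated value below. The count of genes above was 1801 without SNL plus UNC0638 library 1, and leaving out any library can only keep or raise it. Ranked over all 16811 genes, filtered or not, by the gap, which is the log2 ratio of the lowest treated value + 1 to the highest other value + 1, Myh6 stood at place 5 with a gap of 2.86 and Rtbdn at place 8 with 2.67. Sspo followed at place 22 with 2.19, Sim2 at 46 with 1.65 and Fam46b at 169 with 0.93. Among the 966 tested genes whose SNL and Sham libraries averaged at most 20, 241 had the pattern, a group that the filter enriches because a low gene often passes it through the treated libraries. Of the 1129 genes, 59.1% had their highest Sham value in library 3, against 40.7% of all genes tested. On the first principal component of the libraries, which held 53.8% of the variance, SNL plus UNC0638 library 1 was at -9.04 and the other treated libraries at 41.2 and 44.1, with SNL libraries at 23.2 to 56.7 and Sham libraries at -71.0 to -47.8. On the second principal component, which held 26.5% of the variance, the treated libraries were at 40.8 to 57.8, Sham library 3 at 24.4 and SNL library 3 at -3.46, and the other Sham and SNL libraries at -45.7 to -13.3.

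Apart from the 5 genes, the 10 low genes with the widest gaps were examined, whether or not they passed the filter. They included Nos2, the inducible nitric oxide synthase, with 131, 398 and 210 scaled counts in SNL plus UNC0638 libraries and 0 to 3.12 in all others. Irg1, which makes itaconate in activated macrophages, had 55.6, 178 and 94.2 in treated libraries and 0 to 3.00 in the others. The chemokine gene Ccl20, the receptor gene Tnfrsf14, Nlrp12, the class I gene RT1-T24-2, the phospholipase gene Pla2g2a, Keg1 and the olfactory receptor gene Olr338 were also among them. Csf3, the granulocyte colony-stimulating factor, had 5.38, 12.4 and 5.16 in treated libraries and was listed at 0 in all 8 others. For all these genes, as for the 5 described, the wide gap is what chose them.

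**Figure D2:**
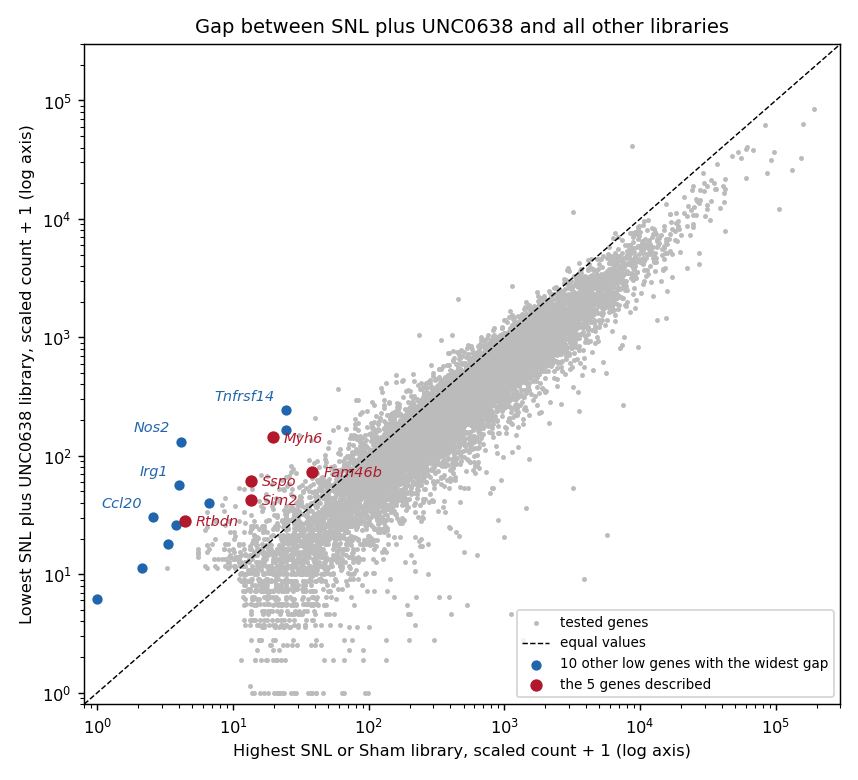
Lowest SNL plus UNC0638 value against the highest SNL or Sham value of each of 12085 tested genes, both as scaled counts + 1 on log axes, with the 10 other low genes with the widest gaps, filtered or not, in blue and the 5 genes in red. The dashed line marks equal values, and the 5 genes lie above it, with Myh6 (gap 2.86) and Rtbdn (2.67) among those with the widest gap and Fam46b (0.93) nearest to the line.

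Over the 11 libraries the 5 genes correlated with each other at Pearson r of 0.84 to 0.97 on the log2 scale. They were chosen for 1 common pattern over the same libraries, so these values describe the choice. The genes most like Myh6 were Alms1, Eml5 and Flt1, each at r = 0.97. Those most like Sim2 were Dqx1 (0.98), C6 (0.97), a terminal complement component, and Pdzd7 (0.97). Rtbdn was closest to Tnrc6a (0.96), Pdzd7 (0.95) and the VEGF receptor gene Flt1 (0.95). Sspo was closest to Prodh (0.97), the laminin gene Lama1 (0.97) and Traf3ip2 (0.96), and Fam46b to the heat shock factor gene Hsf1, LOC100125384 (both 0.98) and Nrbp2 (0.97). Pdzd7, for example, had 129, 141 and 134 scaled counts in SNL plus UNC0638 libraries, 22.8 to 39.8 in SNL libraries and 35.4 to 49.9 in Sham libraries, which do not overlap with the treated ones.

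The other genes of heart muscle went in both directions, and most were below the filter. Myosin heavy chains are the motors of the thick filament, and those of the heart work there with actin Actc1, the troponins and light chains. Of 28 cardiac genes listed, 27 had a row and 10 passed the filter. In SNL plus UNC0638 against SNL, 2 were higher and 2 lower by limma with a Benjamini-Hochberg adjusted p under 0.05, where 27.8% of all genes tested were called (13.5% higher and 14.3% lower). The median log2 difference of the 10 was -0.35, against 0.01 over all tested genes. The calcium pump regulator Pln and the calcium release channel gene Ryr2 were the higher ones, with log2 differences of 0.89 ± 0.23 (SE, adjusted p = 0.0163) and 1.17 ± 0.37 (adjusted p = 0.0355). Both calls were lost without SNL plus UNC0638 library 1 (adjusted p = 0.0505 for Pln and 0.123 for Ryr2). Pln was also lost without library 3 of that group (0.059), and Ryr2 without library 2 of it (0.0781) or SNL library 1 (0.0959) or 4 (0.0877). Ryr2 had 4469, 3023 and 2648 scaled counts with UNC0638, 913 to 2739 in SNL and 2776.6 to 5168.5 in Sham. With UNC0638 it differed from Sham by -0.07 ± 0.37 (SE, adjusted p = 0.889). In SNL it differed from Sham by -1.24 ± 0.34 (adjusted p = 0.0112).

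The lower ones, Csrp3 and Ankrd1, encode a muscle LIM protein and an ankyrin repeat protein of the heart, which are also known from injured sensory neurons. Csrp3 had 3.59, 130 and 120 scaled counts in SNL plus UNC0638 libraries, against 1127, 760, 562 and 585 in SNL libraries and 1.39 to 3.84 in Sham libraries. SNL plus UNC0638 library 1 was at the Sham level and the other 2 treated libraries lay between Sham and SNL. The log2 difference to SNL was -4.13 ± 0.92 (SE, adjusted p = 0.00809), and -2.53 without that library (adjusted p = 0.00176). Ankrd1 differed by -2.76 ± 0.64 (SE, adjusted p = 0.0101), and by -1.71 without it (adjusted p = 0.00804). Pln had 110, 83.5 and 117 scaled counts in SNL plus UNC0638 libraries, 41.3 to 69.3 in SNL and 26.5 to 41.7 in Sham, with no overlap between treated and other libraries. Mybpc3, a myosin-binding protein of the heart, had the same order far lower, with 3.59, 7.74 and 3.87 in treated libraries, 0.857 to 2.25 in SNL and 0 in all Sham libraries, below the filter. Pln and Mybpc3 were the 2 of 27 cardiac genes with every treated library above all others. Of all genes tested, 9.34% had this pattern, a share over filtered genes only, and of the tested cardiac genes only Pln had it. Among the defining heart genes, Tbx20 and Hand2 were at 0 in every library. Actc1, Tnni3, Myl7, Nkx2-5 and Gata4 were at 3.12 or less in every library. Other cardiac genes were not so low, and the troponin genes Tnnt2 and Tnnc1 were read in every library. Myl2 (26.9), Myl3 (96.0), Myoz2 (52.0), Smyd1 (68.2), Trdn (376) and Myh7 (914) were high in SNL plus UNC0638 library 1. In all other libraries these were at most 19.3.

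Skeletal muscle genes were high in 1 treated library. Summed over 26 skeletal muscle genes with a row, SNL plus UNC0638 library 1 had 92047 scaled counts, the other 2 treated libraries 517 and 422, SNL libraries 357 to 852 and Sham libraries 346 to 464. Myh6 in these 3 treated libraries was 179, 142 and 152, so it was about as high in the 2 libraries without that muscle signal. Skeletal actin Acta1 had 12732, 65.0 and 56.8 in treated libraries, 79.3 to 105 in SNL libraries and 70.1 to 121 in Sham libraries. Of 13 skeletal muscle genes tested, Pgam2 and Eno3, both glycolytic enzymes of muscle, were called higher against SNL and 0 lower, with a median log2 difference of 2.096. At an unadjusted p under 0.05 the counts were 4 higher and 0 lower, and limma-voom called 3 higher and 0 lower. For such unadjusted and limma-voom counts, here and for the lists below, the share over all genes was not worked out. They therefore have no background beside them. By limma, 13.5% of all genes tested were called higher and 14.3% lower. Without SNL plus UNC0638 library 1, Eno3 was the 1 skeletal muscle gene called (log2 difference 1.24, adjusted p = 0.0235). The Pgam2 call was lost without any of 7 single libraries (adjusted p = 0.0558 to 0.104), including the treated library 1 (0.0924), SNL libraries 1, 2 and 4 and Sham libraries 1, 2 and 4. The Eno3 call was lost without any of the same SNL or Sham libraries (adjusted p = 0.0537 to 0.0886).

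Within the myosin heavy chain family, Myh7b had every treated library above all others, as Myh6 did, and Myh7 did not. Myh7b, an ancient slow-type myosin, had 178, 340 and 237 scaled counts in SNL plus UNC0638 libraries, against 95.9, 81.0, 105 and 78.4 in SNL libraries and 43.1, 64.8, 71.7 and 50.7 in Sham libraries. All treated values lay above all others. Its log2 difference was 1.43 ± 0.24 to SNL (SE, adjusted p = 0.0022) and 2.09 ± 0.24 to Sham (adjusted p = 0.000124). Unlike Myh6, whose SNL and Sham libraries overlapped, Myh7b was also called higher in SNL than in Sham (0.65 ± 0.22, adjusted p = 0.0306). Myh7, the beta heavy chain of heart and slow muscle that lies next to Myh6 in the genome, had 914, 4.64 and 5.16 in treated libraries, 2.82 to 5.47 in SNL and 0 to 5.38 in Sham, and was high in SNL plus UNC0638 library 1 alone. Myh6 and Myh7 are near-identical copies, and 50 base reads can be shared between them. The developmental myosin Myh8 had 87.0, 41.8 and 20.6 with UNC0638, 0.941, 1.71, 25.5 and 0 in SNL and 87.3 to 138 in Sham. Its log2 difference to SNL was 3.66 ± 0.89 (SE, adjusted p = 0.012), with all SNL libraries far below Sham. Of 9 family members tested, 2 were called higher against SNL, Myh7b and Myh8, with 0 lower, 3 higher and 0 lower at an unadjusted p under 0.05, and 2 higher and 0 lower by limma-voom. By limma, 13.5% of all genes tested were called higher and 14.3% lower. The median log2 difference of the 9 was 0.44.

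**Figure D3:**
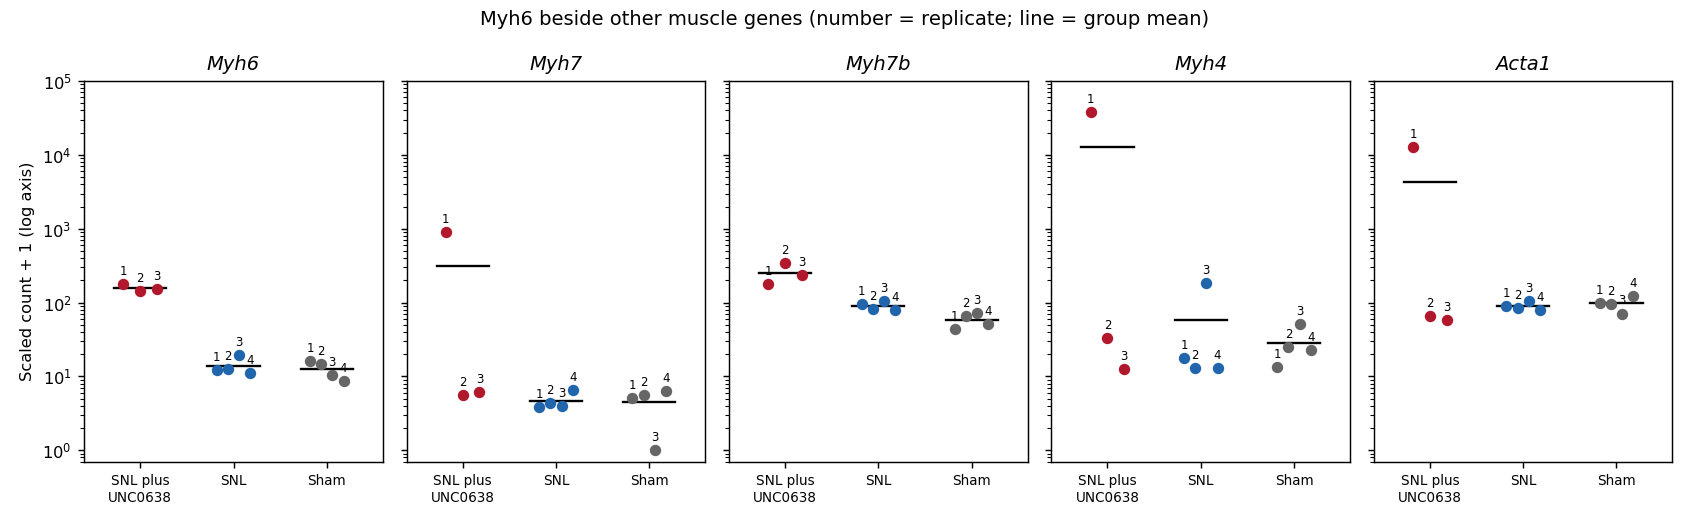
Scaled counts + 1 on a log axis for Myh6, its neighbour Myh7, Myh7b and the skeletal muscle genes Myh4 and Acta1, with 1 point per library, numbered by replicate, and a line at the group mean. Myh7, Myh4 and Acta1 are high in SNL plus UNC0638 library 1 (914, 38568 and 12732) and not in the other 2 treated libraries, whereas Myh6 is at 142 to 179 in all 3.

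Photoreceptor genes other than Rtbdn were low or absent in most cases. Of 37 such genes listed, 34 had a row and 9 passed the filter, and 0 were called higher and 1 lower in SNL plus UNC0638 against SNL by limma, with a median log2 difference of -0.35. Over all genes tested, 13.5% were called higher and 14.3% lower, so these shares of 9 genes are near the background. At an unadjusted p under 0.05 the counts were 1 higher and 3 lower, and limma-voom called 1 higher (Gnb3) and 2 lower (Pde6b and Gnb1). Against Sham, 4 were called higher, Gnb3 and Pde6b among them, and 3 lower. In that comparison limma called 25.5% of all genes tested higher and 26% lower. In 3 of the 34 genes, Gnat2, Gnb3 and Arr3, every treated library lay above all others. This pattern was held by 9.34% of all genes tested. That share covers filtered genes only, and of the tested photoreceptor genes only Gnb3 had the pattern. Gnb3, a cone transducin subunit, had 16.1, 15.5 and 23.2 scaled counts in SNL plus UNC0638 libraries, 1.71 to 7.52 in SNL and 0 to 4.67 in Sham, so it passed the filter only through the treated group. Gnat2, the alpha subunit of cone transducin, had 8.07, 9.28 and 10.3 in treated libraries, 3.00 to 4.56 in SNL and 0 to 4.67 in Sham, below the filter. The cone and rod regulator Crx, Rbp3 and Gngt1 were at 0 in every library. Arr3, a cone arrestin, had 6.28, 13.9 and 14.2 in treated libraries, 0 to 1.82 in SNL and 0 to 5.56 in Sham, below the filter. Pde6b, a rod phosphodiesterase subunit, was the lower gene, with 13.5, 128 and 169 with UNC0638, 459 to 632 in SNL and 4.17 to 24.9 in Sham. Its log2 difference to SNL was -3.02 ± 0.75 (SE, adjusted p = 0.0136) and -1.90 without SNL plus UNC0638 library 1 (adjusted p = 0.0288). Without it 2 photoreceptor genes were called lower, Pde6b and Gnb1. That library was within the range of Sham and the other 2 treated libraries were between Sham and SNL.

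Genes that carry riboflavin or turn it into flavin cofactors, listed together with folate receptor genes, mostly stayed near the SNL level. Of 5 tested, which include the folate receptor gene Folr2, 0 were called higher and 1 lower against SNL, with 0 higher and 1 lower at an unadjusted p under 0.05 and by limma-voom. By limma, 13.5% of all genes tested were called higher and 14.3% lower. The lower gene of the list was Rfk, riboflavin kinase, with 982, 823 and 1055 scaled counts in SNL plus UNC0638 libraries, 1184 to 1512 in SNL and 1192 to 1674 in Sham. Its log2 difference to SNL was -0.55 ± 0.15 (SE, adjusted p = 0.0177), a call lost without SNL plus UNC0638 library 2 (0.0774) or SNL library 1 (0.0521). The riboflavin transporter Slc52a2 differed by -0.06 ± 0.13 (adjusted p = 0.726). Against Sham, Folr2 was called higher, and Rfk and Flad1 lower, where 25.5% of all genes tested were called higher and 26% lower.

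Genes of ependymal and other ciliated cells, the neighbours of the subcommissural organ that makes SCO-spondin, gave 2 higher and 0 lower calls against SNL among 9 tested of 28 listed. The counts at an unadjusted p under 0.05 and by limma-voom were also 2 higher and 0 lower, and the median log2 difference was 0.13. By limma, 13.5% of all genes tested were called higher and 14.3% lower. Spef2, a sperm flagellar protein, had 24.2, 21.7 and 19.4 scaled counts in SNL plus UNC0638 libraries, 4.72 to 6.76 in SNL and 20.3 to 29.2 in Sham. Spef2 thus differed from SNL by 1.68 ± 0.26 on the log2 scale (SE, adjusted p = 0.00149), with treated and Sham libraries overlapping. The cilia gene Ccdc39 differed by 0.71 ± 0.17 (adjusted p = 0.0107), and its treated libraries (155 to 233) lay above SNL (110 to 133) and Sham (118 to 152). Ccdc40 was at 0 in every library, and Ttr, a product of the choroid plexus, had 0.897 to 2.58 in treated libraries, 0.751 to 10.3 in SNL and 7.79 to 21.6 in Sham. Its treated and SNL values overlapped, and SNL library 1 reached into the Sham range.

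Of 11 bHLH-PAS genes tested beside Sim2, limma called 0 in either direction against SNL, with 1 higher and 1 lower at an unadjusted p under 0.05. Of all genes tested, limma called 27.8% against SNL. The median log2 difference of the 11 was 0.01, and limma-voom called 2 of them higher (Ahr and Epas1) and 0 lower. Sim1, the closest relative of Sim2, had 0.897, 0 and 0 scaled counts in SNL plus UNC0638 libraries, 0 to 0.751 in SNL and 0 in all Sham libraries. Arnt, a partner of single-minded proteins, averaged 334 ± 33.6 with UNC0638 (SD, n = 3), 323 ± 57.0 in SNL and 189 ± 13.6 in Sham (n = 4 each). Its log2 difference was 0.06 ± 0.14 to SNL (SE, adjusted p = 0.791) and 0.82 ± 0.14 to Sham (adjusted p = 0.000919), where 51.5% of all genes tested were called (25.5% higher and 26% lower). SNL against Sham, in which 48.2% of genes were called (24.8% higher and 23.4% lower), gave 0.76 ± 0.13 (adjusted p = 0.00085), so Arnt was higher in both ligated groups. Both comparisons share the Sham libraries. Hif1a differed from SNL by -0.05 ± 0.12 (adjusted p = 0.793). Epas1 differed by 0.66 ± 0.43 (adjusted p = 0.259) with Sham library 3 at 2526 and the other Sham libraries at 682 to 871. With Sham and SNL libraries 3 both left out, it was called (adjusted p = 0.00149). Without SNL plus UNC0638 library 1, 1 bHLH-PAS gene was called, Ahr, which was higher.

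The other Fam46 genes had patterns of their own. Fam46a had 52.9, 100.6 and 116 scaled counts in SNL plus UNC0638 libraries, against 142, 143, 133 and 205 in SNL libraries and 30.6 to 35.8 in Sham libraries. The groups did not overlap, in the order SNL, SNL plus UNC0638, Sham. Its log2 difference was -0.84 ± 0.26 to SNL (SE, adjusted p = 0.0323) and 1.36 ± 0.26 to Sham (adjusted p = 0.00138). The call against SNL was lost without SNL plus UNC0638 library 1 (0.112) or 2 (0.0502), or SNL library 1 (0.0603), 2 (0.0595) or 4 (0.0845). Fam46c differed from SNL by 0.47 ± 0.22 (adjusted p = 0.12), and Fam46d was at 0 in all libraries but Sham library 3. Of 11 canonical and non-canonical poly(A) polymerases tested, 1 was called higher and 1 lower against SNL, with 2 higher and 1 lower at an unadjusted p under 0.05. Limma-voom called 6 higher and 0 lower, but its share over all genes was not worked out, so this count has no background. By limma, 13.5% of all genes tested were called higher and 14.3% lower. Without SNL plus UNC0638 library 1, Papd4 and Fam46c were called higher and 0 lower. The higher gene was Papd4, a cytoplasmic poly(A) polymerase, with a log2 difference of 0.66 ± 0.19 (SE, adjusted p = 0.0243), a call lost without SNL plus UNC0638 library 3 (0.0978) or SNL library 1 (0.0661) or 2 (0.0685). Against Sham, 6 of the 11 were called higher and 0 lower, with 6 higher and 0 lower at an unadjusted p under 0.05, and 8 higher and 0 lower by limma-voom. Of all genes tested, limma called 25.5% higher and 26% lower against Sham.

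**Figure D4:**
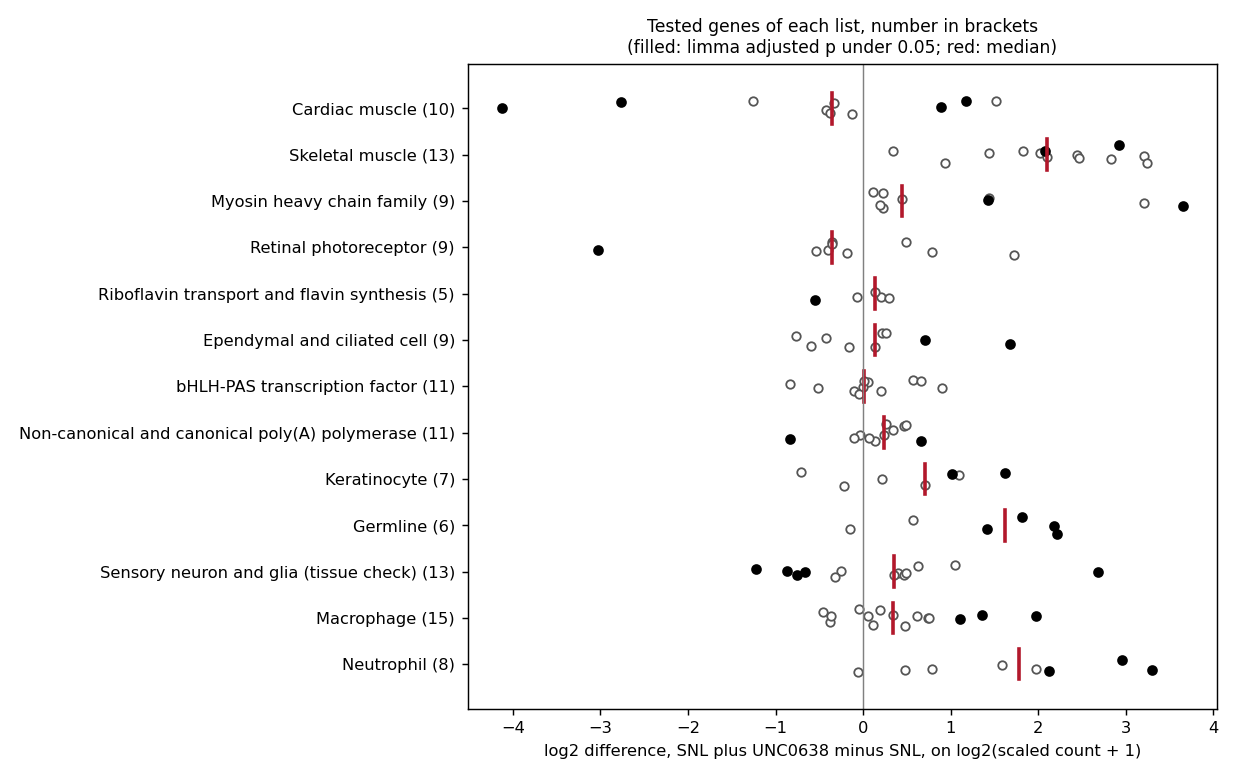
Log2 differences of SNL plus UNC0638 minus SNL, on log2(scaled count + 1), for each tested gene of 13 gene lists, with filled points where the limma adjusted p was under 0.05 and a red bar at the list's median. The medians range from -0.35 for the cardiac and retinal lists to 2.096 for the skeletal muscle list, in which SNL plus UNC0638 library 1 is far above the other libraries.

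Markers of other cells that a ganglion sample can hold moved to different extents. Of 13 sensory neuron and glia genes tested, 1 was called higher and 4 lower against SNL, the same counts as without SNL plus UNC0638 library 1. Over all genes tested, 13.5% were called higher and 14.3% lower against SNL. The nociceptor sodium channel Scn10a was higher by 2.68 ± 0.47 (SE, adjusted p = 0.00257), and the tubulin gene Tubb3 (-1.23 ± 0.14), the intermediate filament gene Prph (-0.76 ± 0.12) and Uchl1 were among the lower. Prph was at 21665 to 23548 in treated libraries, 35192 to 42542 in SNL and 33409 to 40392 in Sham, so this defining neuronal transcript of the labelled tissue was present in all groups. Against Sham, 0 of the 13 were called higher and 10 lower with UNC0638 (0 and 10 at an unadjusted p under 0.05 and by limma-voom), and 2 higher and 9 lower in SNL. Summed macrophage markers reached 11917 to 22153 in treated libraries, 10511 to 20204 in SNL and 2825 to 5838 in Sham, and 3 of 15 were called higher and 0 lower against SNL (4 higher at an unadjusted p under 0.05, 7 by limma-voom). Against Sham, 15 of 15 macrophage markers were called higher with UNC0638 and 14 of 15 in SNL, 2 comparisons that share the Sham libraries. Of all genes tested against Sham, 25.5% were called higher and 26% lower with UNC0638, and 24.8% higher and 23.4% lower in SNL. Among the macrophage markers, the endotoxin co-receptor Cd14 was the most clearly higher against SNL, by 1.97 ± 0.40 (SE, adjusted p = 0.005). Without SNL plus UNC0638 library 2 the Fcgr3a call among these was lost (adjusted p = 0.134), as it was without treated library 3 (0.101) or SNL library 1 (0.054), 2 (0.0573) or 3 (0.0587).

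Summed neutrophil markers reached 882 to 1187 in SNL plus UNC0638, 180 to 374 in SNL and 63.8 to 314 in Sham. Csf3r and Lcn2 made up most of the treated sum, with means of 454 and 288 out of 1083. Not all markers were higher, and several, Ngp, Camp and Np4 among them, had lower means with UNC0638 than in SNL. Of 8 tested, 3 were called higher and 0 lower against SNL, with 4 higher and 0 lower at an unadjusted p under 0.05 and by limma-voom. By limma, 13.5% of all genes tested were called higher and 14.3% lower. The receptor gene Csf3r had 363, 521 and 476 with UNC0638, 34.7 to 58.6 in SNL and 13.8 to 34.3 in Sham, a log2 difference to SNL of 3.30 ± 0.29 (SE, adjusted p = 0.000136). Lcn2, a lipocalin of neutrophil granules, differed by 2.95 ± 0.42 (adjusted p = 0.00103). The other granule genes Mpo, Elane, Ltf, Np4, Ngp and Camp did not reach 10 scaled counts in any treated library. Mmp8 reached it in treated library 1 alone (14.4). Np4 was at 3.59 to 4.64 in treated libraries, below its 23.5 in SNL library 1 and 9.74 in Sham library 1. Elane, at 2.58 to 4.64 in treated libraries and 0 to 1.39 in the others, still had every treated library above all others. Mmp9, also a granule gene, had 24.2, 92.8 and 50.3 with UNC0638, 17.3 to 65.8 in SNL and 1.54 to 12.5 in Sham. Cxcr2 reached 10 scaled counts in 1 of the 8 SNL and Sham libraries and so passed the filter only through the treated group. Its call was lost without any treated library (0.0636 to 0.0879) or SNL library 2 (0.0504) or 4 (0.0579). The part of any of these cell types in the levels of the 5 genes was not tested.

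The genes beside the 5 in the genome were called about as often as genes in general. By the order of genes in RefSeq, the nearest 2 genes with a row on each side gave 20 neighbours, of which 13 were tested. Against SNL, 1 was called higher and 2 lower, where 27.8% of all genes tested were called, and the median log2 difference was 0.08, in a range of -0.98 to 1.52. Cmtm5, next to Myh6, was the higher one, with 655, 710 and 698 scaled counts in SNL plus UNC0638 libraries, 356 to 461 in SNL and 271 to 309 in Sham, a log2 difference of 0.76 ± 0.13 (SE, adjusted p = 0.00209). Its treated libraries lay above all others, by far less than those of Myh6. Prdx2, a peroxiredoxin gene near Rtbdn, was lower by -0.98 ± 0.19 (SE, adjusted p = 0.00397). Atp6v0e2, near Sspo, was lower by -0.48 ± 0.14 (adjusted p = 0.0245), a call lost without SNL plus UNC0638 library 2 (0.0918) or 3 (0.0879) or SNL library 1 (0.0642) or 2 (0.0542). For Sspo, 32 annotated genes without a row lay between it and Zfp746 on its other side, which differed from SNL by 0.18 ± 0.14 (adjusted p = 0.36). Rnaseh2a, on the other side of Rtbdn, differed by -0.22 ± 0.11 (adjusted p = 0.171), and both nearest neighbours of Sim2 were below the filter.

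MAST1, the kinase gene next to Rtbdn, had 2713, 1908 and 1374 scaled counts with UNC0638, 366, 923, 1959 and 307 in SNL and 1114, 880, 4285 and 1056 in Sham. Its treated range overlapped with both other groups through libraries 3 of SNL and Sham. The log2 difference to SNL was 1.52 ± 0.65 (SE, adjusted p = 0.1), and MAST1 was called without SNL library 3 (0.019) or Sham library 3 (0.0485). Zfp467, which overlaps Sspo in the annotation, differed from SNL by 0.48 ± 0.21 (adjusted p = 0.102), a call gained without SNL library 3 (0.0415). The sources used here do not say whether counting used strand, so reads of overlapping genes may be mixed. Mir208b near Myh6 was at 0 in every library, and Mir3546, which overlaps Myh6, had 0, 4.64 and 1.29 in treated libraries and 0 to 1.39 in the others. On the far side of Fam46b, RGD1303271, named Kdf1 in RefSeq, had 7.18, 4.64 and 9.03 in treated libraries, 0 to 1.502 in SNL and 0 to 1.54 in Sham, above all others but below the filter.

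**Figure D5:**
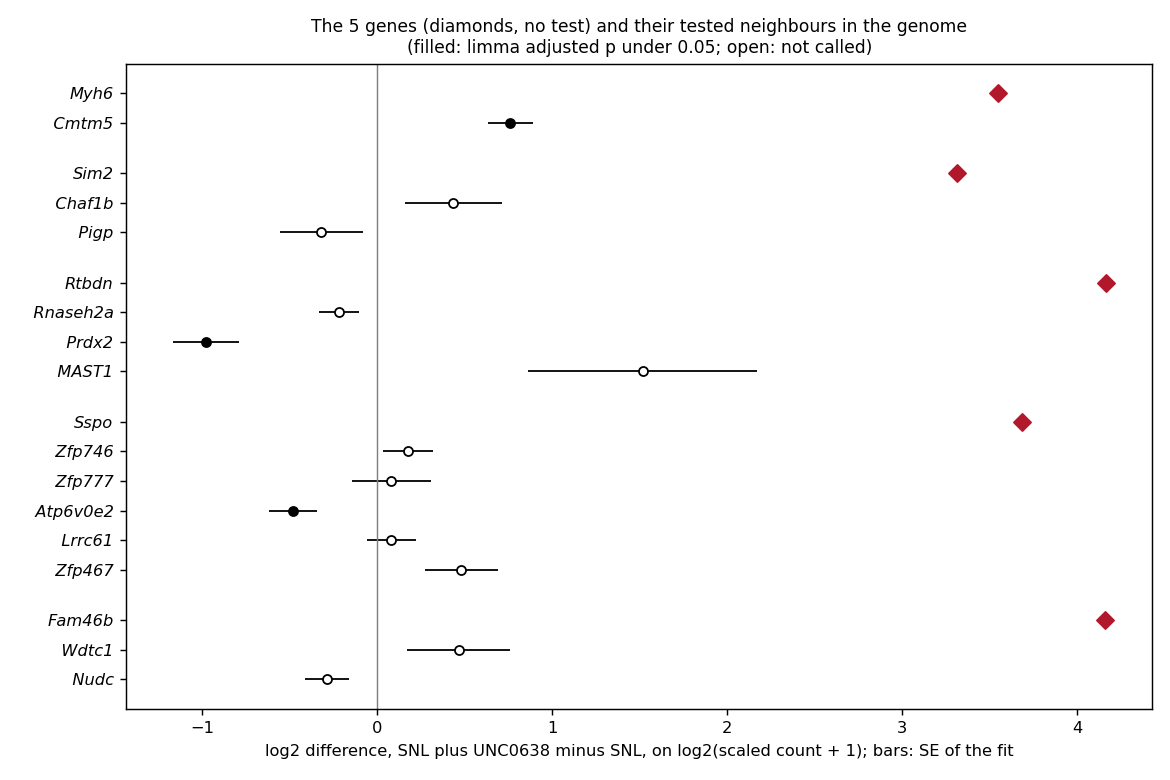
Log2 differences of SNL plus UNC0638 minus SNL, on log2(scaled count + 1), for the 5 genes (diamonds) and 13 of the 14 tested genes that lie beside or overlap them, with bars of 1 SE of the fit and filled points where the limma adjusted p was under 0.05. The 5 genes lie between 3.31 and 4.16, and the neighbours between -0.98 and 1.52.

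The transcripts of the enzymes that UNC0638 inhibits were measured in the same libraries. Ehmt2, which encodes G9a, had 1041, 1555 and 1116 scaled counts in SNL plus UNC0638 libraries, 1143, 1121, 1241 and 1032 in SNL libraries and 786, 699, 1086 and 768 in Sham libraries. The treated and SNL libraries overlapped, and the log2 difference was 0.11 ± 0.17 (SE, adjusted p = 0.662). Ehmt1, which encodes GLP, differed from SNL by -0.09 ± 0.11 (adjusted p = 0.549). Transcript level does not measure the activity of an inhibited enzyme, and histone methylation was not measured.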

How the data were processed

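RNA of 11 ganglion libraries was sequenced as single-end reads of 50 bases from stranded total RNA libraries. Reads were aligned with TopHat2 2.0.9 to rn4, and Cuffdiff 2.1.1 is also named, per the submitters' processing notes. The sources used here name no annotation. The signal values in the deposited table are, as read from the values themselves, each library's counts divided by a single number. The value of 1 read (0.429 to 1.56) was taken from the steps between low values, of which 98.8% to 99.3% were whole within 0.01 steps. Estimated reads cover counting error only.

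Genes with at least 10 in at least 3 libraries (12085) were fitted with limma 3.58.1 (R 4.3.3, statmod 1.5.0; trend and robust eBayes) on log2(value + 1), taking all 11 libraries and 3 group means together. Tests were two-sided, with Benjamini-Hochberg adjusted p under 0.05 over all genes. Sdc2 and Pcdhgc5, each at 0 in a whole group, were left out. limma-voom with quality weights was run on the estimated reads. The fit was checked on simulated data. The 5 genes and the 13 gene lists were chosen with earlier results of these data known. Genes named are the 5, the 3 most correlated with each, the 10 low genes with the widest gap, up to 4 called genes per list, defining markers, neighbours and Ehmt1 and Ehmt2. Actc1, Tnni3, Tnnt2, Tnnc1, Myl2, Myl3, Myl7, Myoz2, Smyd1, Trdn, Nkx2-5, Gata4, Mybpc3, Acta1, Arr3, Gnat2, Gnb1, Gnb3, Slc52a2, Folr2, Flad1, Ttr, Ahr, Sbsn, Zfp467, the microRNA genes and the granule genes were named after their values were seen. Values of 3 single genes are not reported here; they remain in the counts. Other scalings, added constants, filters, the replicate block and each library left out were alternatives.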

Additional observations from a re-analysis of the deposited data

Results flagged for a closer look

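Single libraries stood apart from the other 3 of their group in 11 of 130 groups of 4 libraries examined, by the ratio of the gap to the range (Dixon's criterion at its 95% level). Chance flags about 1 group in 20. Of the 5 genes, Sspo was low in Sham library 4 (9.22, the others 12.5), from 12 estimated reads there and 8 to 11 in the others. At such numbers counting error alone is 28.9% to 35.4% of a value (SD). Fam46b was high in Sham library 3 (37.4, the others 6.82 to 11.5). Sham library 3 was also high for Epas1 (2526), MAST1 (4285), Zfp467 (157) and the summed bHLH-PAS genes (5600). SNL library 3 was high for Myh8 (25.5), Piwil2 (57.1) and the summed germline genes (179), and low for Fcgr3a (75.1). SNL library 4 was high for Fam46a (205).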

How the results depend on the processing

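Whether the replicate numbers pair the libraries is not known. Same-numbered libraries of SNL plus UNC0638 and SNL had correlations of deviations of -0.319, -0.0849 and -0.446, and those of SNL plus UNC0638 and Sham 0.0113, -0.245 and -0.104. Those of SNL and Sham were all positive, at 0.187, 0.00452, 0.431 and 0.0964. Deviations from means of 3 or 4 libraries depend on each other, so these values cannot exclude pairing. With the number as a replicate block, 2126 genes were called in SNL plus UNC0638 against SNL, where 3356 were called without it. Leaving out single libraries gave 2032 (without SNL plus UNC0638 library 2) to 4468 (without Sham library 3), and 2076 without SNL library 1. With Sham and SNL libraries 3 both left out, an alternative chosen after seeing the data, 5341 were called. Single libraries left out gave 4589 to 6951 calls in SNL plus UNC0638 against Sham and 4794 to 6510 in SNL against Sham. Calls over all gene lists, 31, became 49 with limma-voom, also chosen after seeing the data, and 23 to 38 without single libraries. The 3 called neighbours became 6 with limma-voom, 7 with both libraries 3 left out and 2 to 4 without single ones. Genes with all treated values above all others, 1129, became 1867 with both left out and 1134 to 1801 without single ones. Leaving libraries out can only keep or raise this last count.

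With 5 added in place of 1, the log2 differences to SNL were 3.20 for Myh6, 2.51 for Sim2, 2.72 for Rtbdn, 3.03 for Sspo and 3.46 for Fam46b, and those to Sham 3.32 for Myh6, 2.65 for Rtbdn and 2.31 for Sspo, since the added value weighs on low genes. Without single libraries the differences to SNL were 3.45 to 3.73 for Myh6, 3.08 to 3.46 for Sim2, 3.82 to 4.39 for Rtbdn, 3.50 to 3.86 for Sspo and 3.92 to 4.46 for Fam46b. Those to Sham were 3.55 to 3.85 for Myh6, 2.47 to 3.15 for Sim2, 3.60 to 4.32 for Rtbdn, 2.45 to 2.81 for Sspo and 2.75 to 3.52 for Fam46b. No difference of the 5 genes changed sign under any alternative run. With libraries left out or another value added, this was fixed by how the genes were chosen, so it is no support. Where a cause is not given, it was not tested. Count-model tests were not run, because the values are scaled and not all of them return whole reads. The control levels of Rtbdn rest on 13 reads, which limits the precision of its ratio.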

Other observations

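Germline genes, a further group that is silent in most somatic tissue, were examined in the same way. Of 27 listed, 22 had a row, 6 passed the filter, and 4 were called higher and 0 lower in SNL plus UNC0638 against SNL by limma, with the same counts at an unadjusted p under 0.05 and by limma-voom. Over all genes tested, 13.5% were called higher. Against Sham, 2 germline genes were called higher (Sycp2 and Piwil1) and 1 lower (Piwil2), where 25.5% of all genes tested were called higher and 26% lower. The median log2 difference to SNL of the 6 was 1.62. Tex15 had 187, 105 and 98.0 scaled counts in SNL plus UNC0638 libraries, 21.6, 41.2, 57.1 and 28.3 in SNL libraries and 267, 181, 142 and 205 in Sham libraries. Its treated libraries lay above SNL (log2 difference 1.81 ± 0.34, SE, adjusted p = 0.00352), and the gene was not low in Sham. Piwil2, a partner of germline small RNAs, had 109, 51.1 and 68.4 with UNC0638, 17.9 to 57.1 in SNL and 198 to 226 in Sham, and its call against SNL (adjusted p = 0.014) was lost without SNL plus UNC0638 library 1 (0.0565). Piwil1 had 49.3, 75.8 and 46.4 with UNC0638, 8.47 to 16.5 in SNL and 2.78 to 10.2 in Sham, with every treated library above every other. Its log2 difference to SNL was 2.18 ± 0.43 (SE, adjusted p = 0.00437). Sycp2, of the synaptonemal complex, had 26.9, 24.8 and 38.7 with UNC0638, 3.00 to 9.41 in SNL and 2.78 to 12.5 in Sham, a log2 difference to SNL of 2.21 ± 0.49 (SE, adjusted p = 0.00793). Sycp2 reached 10 scaled counts in 2 of the 8 SNL and Sham libraries, so it passed the filter only through the treated group. The germ cell markers Dazl, Prm1, Prm2, Tnp1 and Wfdc15a were at 0 in every library.

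Of 7 keratinocyte genes tested, Krt10 and Perp were called higher against SNL and 0 lower, with 4 higher and 0 lower at an unadjusted p under 0.05 and 3 higher and 0 lower by limma-voom. By limma, 13.5% of all genes tested were called higher and 14.3% lower. Krt10 had 19.7, 12.4 and 14.2 with UNC0638, 1.88 to 6.76 in SNL and 2.78 to 4.61 in Sham (log2 difference to SNL 1.62 ± 0.40, SE, adjusted p = 0.0134). No SNL or Sham library reached 10 for Krt10, which passed the filter only through the treated group. Against Sham, Krt10 and Sbsn were called higher and Perp lower, where 25.5% of all genes tested were called higher and 26% lower. The Perp call (adjusted p = 0.0465) was lost without 9 of the 11 single libraries (0.0518 to 0.163). Without SNL plus UNC0638 library 1 neither was called, and Krt10 did not pass the filter there.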
